A study of Mus musculus with 13 samples.

Results

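Csf1, Csf2, Csf3, Kitl, Flt3l and Tslp encode 6 secreted or membrane-held growth factors through which connective tissue cells act on blood cells. These genes were chosen by name, and all 6 were found among the 23418 genes of the deposited count table and were kept among the 15412 genes tested. The study took total RNA from mouse cells for sequencing, next to a parabiosis experiment on whether muscle FAPs circulate, and sought FAP transcripts that drive satellite cells, from which muscle regenerates. Its groups were FAPs of muscle (4 libraries, numbered 2 to 5), FAPs of lung (5 libraries, numbered 1 to 5) and MEFs (4 libraries, numbered 1 to 4). In this field FAP stands for fibro/adipogenic progenitor, a connective tissue cell that lies between the fibres of muscle, and MEF for mouse embryonic fibroblast, a cultured cell. The labels give tissue and cell type alone. Genotype, strain, age, treatment, sort gate and culture conditions were not stated in those sources, nor is it said whether replicates came from separate animals or cultures, so that p-values measure the spread between these libraries, which may be technical.

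The 6 factors divide the work of making and keeping blood cells. Macrophages live on the product of Csf1, neutrophils are called up by that of Csf3, and the product of Csf2 acts on both lineages and is required for the macrophages of the lung's air spaces. Stem cells and mast cells depend on Kitl, dendritic cells on Flt3l, and Tslp, best known from epithelium, acts on dendritic cells and on type 2 immune cells. Each acts through a receptor on the responding cell, and connective tissue cells are a known source of several of them.

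Read totals were 41327292 to 44699463 in muscle FAPs, 28636183 to 35464622 in those of lung and 33756915 to 41466585 in MEFs. Levels are given as CPM, counts per 1000000 reads after scaling by TMM (edgeR's trimmed mean method), with the SD over libraries. The summed level of 4 FAP markers (Pdgfra, Ly6a, Cd34 and Thy1) was 3928 to 4398 CPM in muscle FAPs, 2625 to 4168 in those of lung and 311 to 383 in MEFs. Thy1 was the exception, with 73.2 ± 27.8 CPM in lung FAPs, below the 193 ± 32.4 CPM of MEFs. The sum of 9 myeloid markers was 9.70 to 10.4 CPM in muscle FAPs, 40.6 to 697 in those of lung and 116 to 457 in MEFs, and that of 7 endothelial markers was 3.17 to 11.5 CPM in muscle FAPs, 37.5 to 614 in those of lung and 163 to 195 in MEFs. The MEF sum was mostly Kdr, at 38.4 ± 31.8 CPM in lung FAPs and 172 ± 15.7 CPM in MEFs, whereas Pecam1 averaged 39.4 CPM in lung FAPs and 0.587 CPM in MEFs, and 5 of the 7 were higher and 1 lower in lung FAPs than in MEFs. Of all tested genes 37.8% were higher and 36.6% lower in that comparison. The sum of 4 mesothelial markers was 0.662 to 24.7 CPM in muscle FAPs, 316 to 777 in those of lung and 24.5 to 33.0 in MEFs. That of 6 markers of pericytes and smooth muscle was 87.6 to 92.6 CPM in muscle FAPs, 257 to 1683 in those of lung and 2083 to 3679 in MEFs. The part of mesothelial cells, pericytes and smooth muscle in the results was not tested. Lung FAP 2 held the highest endothelial sum and lung FAP 3 the highest lung sums of myeloid markers and of 8 lung epithelial markers, the last at 8149 CPM against 42.0 to 131 in the other lung libraries and 2.22 to 4.28 in muscle FAPs. The myeloid sum of lung FAP 3, 697 CPM, was mostly Lyz2, at 614 CPM there against a lung median of 7.16 CPM. In bulk RNA, fewer cells that make a transcript and less transcript per cell cannot be told apart.

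**Figure D1:**
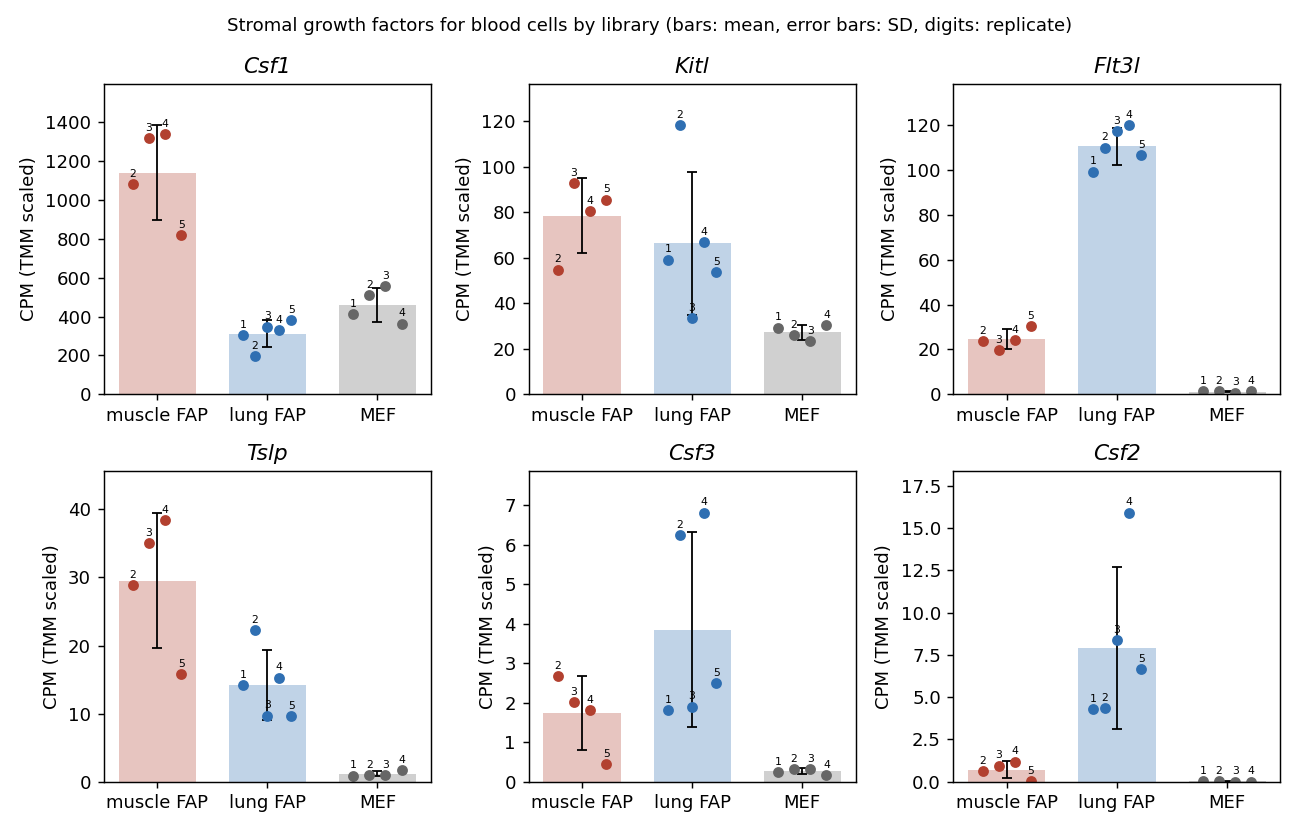
Level of each growth factor in each of the 13 libraries, in TMM-scaled CPM on linear axes that start at 0. Points are libraries with their replicate numbers, shaded columns are group means and error bars the SD (n = 4 muscle FAP, 5 lung FAP, 4 MEF). Csf1 and Tslp were highest in muscle FAPs, and Csf2 and Flt3l were highest in lung FAPs.

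Between muscle FAPs and lung FAPs, the factors did not move together. Csf1 and Tslp were higher in muscle FAPs, Csf2 and Flt3l were lower there, and Csf3 and Kitl did not pass. A gene passed at an edgeR quasi-likelihood p, adjusted by Benjamini-Hochberg over all tested genes, under 0.05. Among all tested genes 48.2% passed in this comparison, 23.2% higher and 25.0% lower in muscle FAPs, so that 4 of 6 is not far from the background. The libraries of both groups did not overlap for 3 of the 6, against 37.9% of tested genes. The median log2 fold change of the 6 was −0.45, against −0.04 over all tested genes.

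Against MEFs, all 6 were higher in muscle FAPs and 5 were higher in lung FAPs, Csf1 being lower there. Of tested genes 73.5% passed between muscle FAPs and MEFs (36.1% higher, 37.3% lower) and 74.4% between lung FAPs and MEFs (37.8% higher, 36.6% lower). All 6 were without overlap between muscle FAPs and MEFs, against 73.9% of tested genes, and 5 between lung FAPs and MEFs, against 65.3%. The median log2 fold change of the 6 was 3.53 for muscle FAPs over MEFs, against −0.04 over all tested genes, and 3.75 for lung FAPs over MEFs, against 0.02. Both comparisons use the same 4 MEF libraries.

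**Figure D2:**
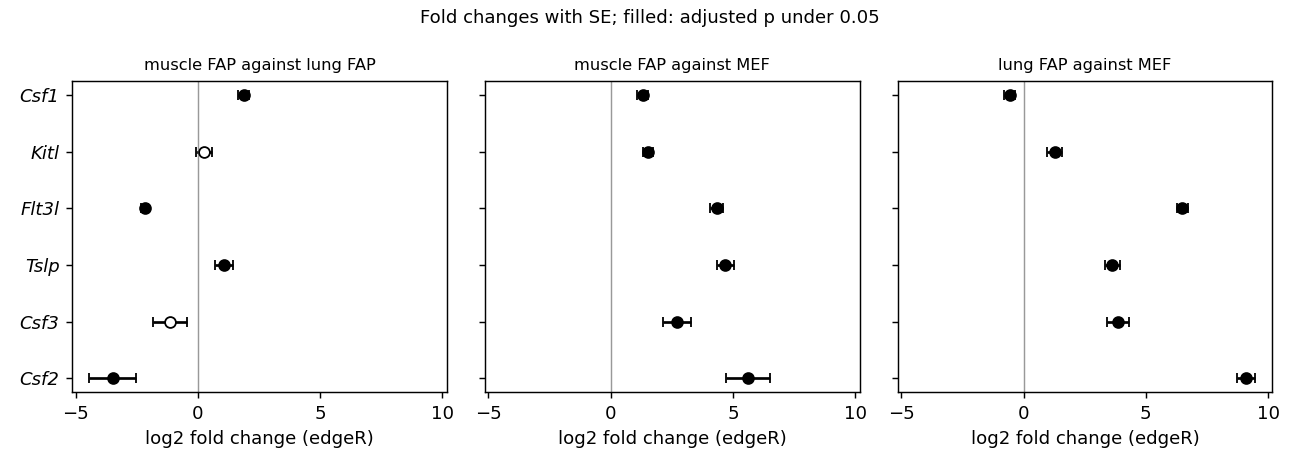
Log2 fold changes of the 6 growth factors in the 3 comparisons (edgeR, all 13 libraries in 1 fit). Bars are the standard error, which comes from log2 CPM per library, computed with 2 as prior count, and not from that fit. Zero means equal levels. The values of Csf2 over MEFs, 5.61 in muscle FAPs and 9.10 in lung FAPs, rest on 2 reads in all MEF libraries. They are not bounds, and their bars do not cover the counting error of those reads.

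Csf1 encodes M-CSF, the growth and survival factor of monocytes and macrophages. It lies on chromosome 3 (GRCm38, 107741048 to 107760469, minus strand). Its level was 1082, 1319, 1340 and 820 CPM in muscle FAPs 2 to 5, 304, 195, 348, 330 and 383 CPM in lung FAPs 1 to 5, and 412, 508, 558 and 363 CPM in MEFs 1 to 4. Every muscle library stood above every lung and MEF library, whereas lung FAPs and MEFs overlapped. Muscle FAPs averaged 1140 ± 243 CPM and lung FAPs 312 ± 71.3 CPM, a 3.65-fold difference (edgeR log2 fold change 1.87, SE 0.24, adjusted p = 2.78e-06). Over MEFs, at 460 ± 88.6 CPM, the muscle level was 2.48-fold higher (log2 fold change 1.31, SE 0.22, edgeR adjusted p = 4.66e-05). Lung FAPs were 1.48-fold below MEFs (log2 fold change −0.56, SE 0.22, edgeR adjusted p = 0.0177), a call that was lost without MEF 3 (−0.47, adjusted p = 0.061) and without lung FAPs 2 and 3 together (−0.45, adjusted p = 0.0513).

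Per kilobase of exon, the scale on which different genes can be compared, Csf1 was the highest of the 6 in each group. It stood at 242 CPM per kilobase in muscle FAPs, 66.1 in those of lung and 97.6 in MEFs. In muscle FAPs Tslp came next at 26.2, followed by Kitl at 13.9 and Flt3l at 13.3, with Csf3 at 1.23 and Csf2 at 0.874. In lung FAPs Flt3l, at 59.9 CPM per kilobase, stood beside Csf1, ahead of Tslp at 12.6, Kitl at 11.7, Csf2 at 9.89 and Csf3 at 2.73. MEFs had Kitl second at 4.82, with Tslp at 1.02, Flt3l at 0.660, Csf3 at 0.184 and Csf2 at 0.0142 CPM per kilobase. The libraries of neighbours in this order overlapped for Tslp, Kitl and Flt3l and for Csf3 and Csf2 in muscle FAPs, for Csf1 and Flt3l and for Tslp, Kitl and Csf2 in lung FAPs, and for no neighbours in MEFs. Of the reads that fell on the 6 genes, Csf1 took 86.1 to 90.7% in muscle FAPs, 42.8 to 68.1% in those of lung and 91.5 to 95.7% in MEFs.

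Flt3l encodes the ligand of the receptor Flt3 and drives the formation of dendritic cells. It lies on chromosome 7 (GRCm38, 45129788 to 45136432, minus strand). Muscle FAPs 2 to 5 held 23.8, 19.8, 24.0 and 30.6 CPM, lung FAPs 1 to 5 held 99.3, 110, 117, 120 and 107 CPM, and MEFs 1 to 4 held 1.33, 1.36, 0.727 and 1.45 CPM. The 3 groups formed separate bands with no overlap, and the 5 lung libraries differed among themselves by little. Muscle FAPs averaged 24.6 ± 4.48 CPM and lung FAPs 111 ± 8.34 CPM, so that muscle was 4.51-fold lower (edgeR log2 fold change −2.17, SE 0.14, adjusted p = 6.02e-08). The difference over MEFs, at 1.22 ± 0.332 CPM, was 20.1-fold in muscle FAPs (log2 fold change of 4.33 in edgeR, SE 0.26, adjusted p = 2.67e-11). In lung FAPs it was 90.5-fold (log2 fold change 6.50, SE 0.23, edgeR adjusted p = 7.17e-13), and 3.52% of tested genes had a larger absolute fold change in that comparison. In the GENCODE annotation 46.3% of the exon length of Flt3l is shared with Gm45713 on the same strand, and how such reads were assigned was not stated.

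Of the 4 members matched in the promoter table, Csf1, higher in muscle FAPs, and Flt3l, lower there, are those whose RefSeq and GENCODE starts coincide. The 160 bases before each start are therefore shown, from RefSeq on GRCm38.p6, read along the gene. Csf1 is on the minus strand at chr3:107760470-107760629 and Flt3l on the minus strand at chr7:45136433-45136592.
Csf1 promoter: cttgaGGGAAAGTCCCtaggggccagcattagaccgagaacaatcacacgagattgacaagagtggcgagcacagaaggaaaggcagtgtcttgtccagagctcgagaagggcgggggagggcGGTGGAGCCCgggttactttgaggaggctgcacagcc
Flt3l promoter: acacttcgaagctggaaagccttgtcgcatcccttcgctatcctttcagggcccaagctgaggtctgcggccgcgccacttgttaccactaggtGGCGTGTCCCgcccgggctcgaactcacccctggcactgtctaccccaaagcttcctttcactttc
Capitals mark matches on either strand to GGGNNNNNCC, the general form of the site bound by NF-kB, a family of transcription factors of inflammation. In Csf1 the upstream run holds 2 overlapping matches, one on each strand, from 155 to 145 bases before the start, and the second run lies 37 to 28 bases before it. The single match of Flt3l lies 66 to 57 bases before its start. Such letters are common: 50.8% of 32851 promoter windows of 300 bases, longer than the 160 shown, held them. In its own 300 bases Csf1 also held a match 231 to 222 bases before the start and another past the start, while Flt3l held no other. No TATAAA, held by 13.6% of windows, and no TGANTCA, the AP-1 form held by 7.81%, was found on either strand in the 300 bases of Csf1 or Flt3l, and among those 4 members Kitl alone held TATAAA, 25 to 20 bases before its RefSeq start.

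Tslp encodes a cytokine of the interleukin-7 family that acts through the receptor chains Crlf2 and Il7r. It lies on chromosome 18 (GRCm38, 32815383 to 32819797, plus strand). Muscle FAPs 2 to 5 held 28.9, 35.0, 38.4 and 15.8 CPM, lung FAPs 1 to 5 held 14.2, 22.2, 9.70, 15.3 and 9.66 CPM, and MEFs 1 to 4 held 0.897, 1.02, 0.977 and 1.68 CPM. Muscle FAP 5 lay inside the lung range, while both kinds of FAP stood clear of MEFs. The muscle mean of 29.5 ± 9.97 CPM was 2.08-fold above the lung mean of 14.2 ± 5.16 CPM (edgeR log2 fold change 1.05, SE 0.36, adjusted p = 0.00671). With scaling by library size alone this difference did not pass (0.62, edgeR adjusted p = 0.0831), in a scaling that moved the median of all genes by −0.41. Over the 1.14 ± 0.361 CPM of MEFs, Tslp was 25.7-fold higher in muscle FAPs (log2 fold change of 4.68 in edgeR, SE 0.35, adjusted p = 2.08e-08) and 12.4-fold higher in those of lung (log2 fold change of 3.63 in edgeR, SE 0.30, adjusted p = 1.73e-07).

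Kitl encodes stem cell factor, which is made as a membrane-held protein and feeds blood stem cells, mast cells and melanocytes through the receptor Kit. It lies on chromosome 10 (GRCm38, 100015630 to 100100416, plus strand). Muscle FAPs 2 to 5 held 54.8, 92.7, 80.5 and 85.6 CPM, lung FAPs 1 to 5 held 59.2, 118, 33.3, 66.9 and 53.7 CPM, and MEFs 1 to 4 held 29.2, 26.0, 23.3 and 30.4 CPM. Lung libraries spanned the whole muscle range, and every FAP library stood above every MEF library. Muscle FAPs, at 78.4 ± 16.5 CPM, and lung FAPs, at 66.3 ± 31.6 CPM, were not told apart (edgeR log2 fold change 0.24, SE 0.34, adjusted p = 0.495). Kitl was 2.88-fold higher in muscle FAPs than MEFs, at 27.2 ± 3.23 CPM (log2 fold change 1.53, SE 0.19, edgeR adjusted p = 0.000359). Lung FAPs were 2.44-fold above MEFs (log2 fold change 1.28, SE 0.31, edgeR adjusted p = 0.000985).

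Endothelial cells also make Kitl, and its highest lung value fell in lung FAP 2. The summed level of the 7 endothelial markers was 41.6, 614, 37.5, 181 and 70.2 CPM in lung FAPs 1 to 5. Kitl was lowest in lung FAP 3, which held the lowest endothelial sum, and highest in lung FAP 2, which held the highest. Lung FAP 2 also held the highest lung sum of pericyte and smooth muscle markers, 1683 CPM against 257 to 1104 in the others. Its sum of FAP markers was the lowest in lung, 2625 CPM against 3181 to 4168. Lung FAP 4, with the lowest pericyte and smooth muscle sum, held 66.9 CPM of Kitl. Without lung FAP 2, Kitl was higher in muscle than in lung FAPs (log2 fold change 0.57, edgeR adjusted p = 0.0259), and the lung difference over MEFs was 0.94 (edgeR adjusted p = 0.000545). Muscle FAPs held endothelial sums of 3.17 to 11.5 CPM beside Kitl levels of 54.8 to 92.7 CPM. In MEFs, whose sum was mostly Kdr, Kitl was 23.3 to 30.4 CPM. All 7 markers were lower in muscle FAPs than in lung FAPs, where 25.0% of all tested genes were lower, and none of the 7 was at 0 in all libraries of a group. The part of endothelial RNA, or of RNA from pericytes and smooth muscle, in the lung level of Kitl was not tested.

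**Figure D3:**
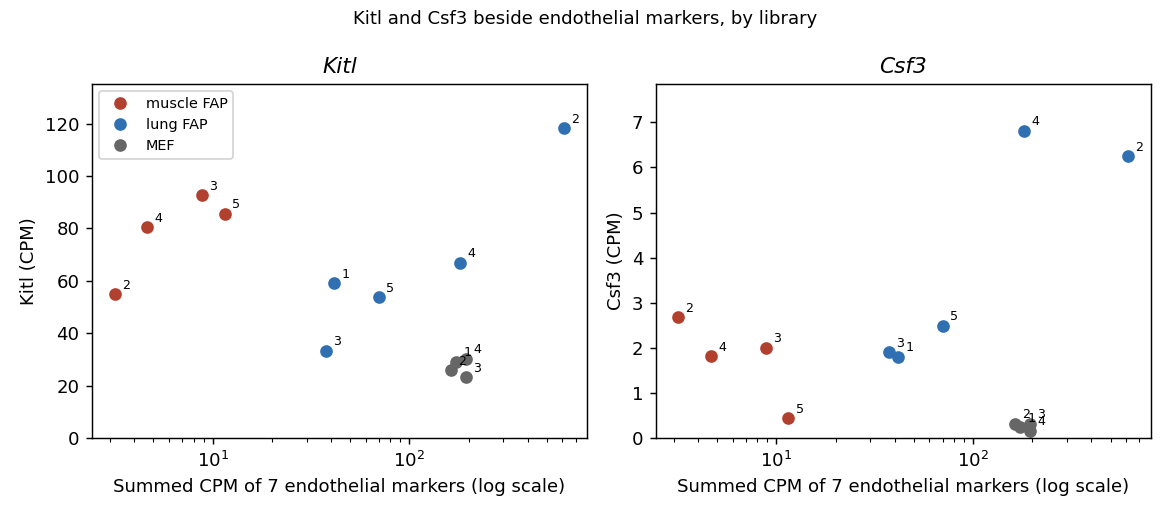
Kitl and Csf3 in each library against the summed level of 7 endothelial markers, all in TMM-scaled CPM, with the marker sum on a log axis. Points are libraries with their replicate numbers. Lung FAP 2, at a marker sum of 614 CPM, held the highest Kitl. It also held the highest lung sum of pericyte and smooth muscle markers, which is not drawn. The marker sum of MEFs was mostly Kdr, at 172 ± 15.7 CPM (SD, n = 4).

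Csf2 and Csf3 are the factors of inflammation and emergency blood formation, and their short-lived mRNAs are known for AU-rich stretches in the 3′ untranslated region, where repeats of ATTTA recruit decay proteins. Csf2 lies on chromosome 11 (GRCm38, 54247271 to 54249667, minus strand) and Csf3 on the same chromosome (98701263 to 98703629, plus strand). In each, the 30 bases with the most ATTTA are shown, with the repeats in capitals, from the GENCODE transcripts Csf2-201 and Csf3-201.
Csf2 site: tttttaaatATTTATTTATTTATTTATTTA
Csf3 site: gatagtttATTTAtctctATTTAatATTTA
The Csf2 site covers bases 230 to 259 after the stop codon, in an untranslated region of 317 bases, and the Csf3 site covers bases 24 to 53 of 669. Counted with overlaps, the whole region holds 9 ATTTA in Csf2, a density of 28.4 per kilobase that 0.0965% of 20729 genes reach, and 6 in Csf3, 8.97 per kilobase, reached by 1.78%. The other members held fewer per kilobase, with 3.16 in Kitl, 2.92 in Tslp, 1.89 in Csf1 and 0 in Flt3l.

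Csf2 encodes GM-CSF. Muscle FAPs 2 to 5 held 0.641, 0.946, 1.18 and 0.0299 CPM, the last from 1 read, and lung FAPs 1 to 5 held 4.30, 4.34, 8.36, 15.9 and 6.65 CPM. MEFs 1 to 4 held 0.0242, 0.0212, 0 and 0 CPM, which is 2 reads in all. Csf2 was lower in each muscle library than in any lung library, and MEFs held next to no reads. Muscle FAPs averaged 0.699 ± 0.498 CPM and lung FAPs 7.91 ± 4.79 CPM, so that muscle was 11.2-fold lower (edgeR log2 fold change −3.49, SE 0.96, adjusted p = 0.000502). Against the 2 MEF reads the ratio was 63.4 for muscle FAPs, with a 95% counting interval of 17.5 to 523 (edgeR adjusted p = 0.000194). The same ratio was 717 for lung FAPs, with an interval of 198 to 5919 (edgeR adjusted p = 9.40e-07). These intervals cover counting error only, and 96 of the 800 exon bases of Csf2 are shared with the antisense gene Gm12223, whose reads cannot be told apart if strand was not used.

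Csf3 encodes G-CSF, the factor for neutrophil production. Muscle FAPs 2 to 5 held 2.68, 2.01, 1.81 and 0.449 CPM, lung FAPs 1 to 5 held 1.80, 6.25, 1.90, 6.81 and 2.50 CPM, and MEFs 1 to 4 held 0.242, 0.318, 0.318 and 0.164 CPM. Lung FAPs 2 and 4 stood above the remaining lung libraries, which lay among the muscle values. Muscle FAPs, at 1.74 ± 0.936 CPM, and lung FAPs, at 3.85 ± 2.47 CPM, did not pass as different (edgeR log2 fold change −1.15, SE 0.68, adjusted p = 0.0781). The difference passed without lung FAP 1 (adjusted p = 0.0439) and without lung FAP 3 (adjusted p = 0.0475), in the same edgeR test. It shrank without lung FAP 2 (log2 fold change −0.89, edgeR adjusted p = 0.178) and without lung FAP 4 (−0.83, adjusted p = 0.203). Over MEFs, at 0.261 ± 0.0738 CPM, Csf3 was 6.61-fold higher in muscle FAPs (log2 fold change of 2.72 in edgeR, SE 0.57, adjusted p = 0.00066) and 14.6-fold higher in those of lung (log2 fold change of 3.87 in edgeR, SE 0.45, adjusted p = 2.73e-05). Lung FAPs 2 and 4 were also the lung libraries with the highest endothelial sums, 614 and 181 CPM, whose part in the Csf3 level was not tested.

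Muscle FAP 5 lay at an end of the muscle range in several members at once, though the outlier check given below singled it out in no gene. It was the lowest muscle library for Csf1, Csf2, Csf3 and Tslp and the highest for Flt3l, while its Kitl lay within the range of the others. Without it, the log2 fold change of muscle FAPs over lung FAPs was 2.0 for Csf1, −3.09 for Csf2 and 1.26 for Tslp, each still past the edgeR threshold (adjusted p = 2.8e-06, 0.000221 and 0.00123). Flt3l, at −2.30, also still passed (edgeR adjusted p = 1.95e-07). Csf3, which had not passed with all libraries, was −0.83 without muscle FAP 5 (edgeR adjusted p = 0.169).

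The receptors of these factors are made mostly by blood cells. Listed with them was Csf2rb2, a near-identical mouse copy of the beta chain Csf2rb that serves Il3 and none of these factors. Of 9 receptor genes 8 were tested, and in muscle FAPs against lung FAPs none was higher, 5 were lower and 3 did not pass, all 8 estimates lying below 0 in edgeR and in DESeq2. Of all tested genes 48.2% passed, and 25.0% were lower in muscle FAPs. Their median log2 fold change was −1.83, against −0.04 over all tested genes. Kit, the receptor for Kitl, was read 7 times in muscle FAP 3 and not at all in muscle FAPs 2, 4 and 5, against 1.06, 20.5, 1.40, 6.45 and 4.99 CPM in lung FAPs 1 to 5 (edgeR log2 fold change −6.97, SE 0.95, adjusted p = 0.000279). It was highest in lung FAP 2, as were Kitl and the endothelial sum, and without that library the change was −5.97 (edgeR adjusted p = 0.000112). Mast cells also carry Kit, and the sum of 5 mast cell markers was 0 to 0.0887 CPM in muscle FAPs and 1.98, 4.39, 1.55, 1.69 and 1.84 CPM in lung FAPs 1 to 5, again highest in lung FAP 2. The lung sum was mostly Cpa3, with 372 reads over lung FAPs and 7 over muscle FAPs. Cma1, Tpsb2, Mcpt4 and Ms4a2 had no read in muscle FAPs and 3, 3, 5 and 4 reads over lung FAPs. Among lung libraries, the sum of pericyte and smooth muscle markers was highest in lung FAP 2 too. The part of endothelial cells, mast cells, pericytes and smooth muscle in the Kit level was not tested. Without muscle FAP 3 no Kit read was left in muscle FAPs. Csf3r, the neutrophil receptor for Csf3, averaged 0.534 ± 0.168 CPM in muscle FAPs and 9.49 ± 7.63 CPM in lung FAPs (edgeR log2 fold change −4.14, adjusted p = 7.65e-05). Csf1r, the macrophage receptor for Csf1, averaged 1.43 ± 0.487 CPM in muscle FAPs and 8.93 ± 4.98 CPM in lung FAPs (edgeR log2 fold change −2.64, adjusted p = 9.96e-05). Il7r, at −2.44 (−1.81 without lung FAP 2), and Csf2ra, at −1.21, were the other two that were lower (edgeR adjusted p = 0.00452 and 0.00178). All 9 myeloid markers were lower in muscle than in lung FAPs as well, and the neutrophil markers S100a8 and S100a9 averaged 0.109 and 0.0585 CPM in muscle FAPs, against 6.60 and 12 CPM in lung FAPs. The part of myeloid cells in the receptor levels was not tested.

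Against MEFs, muscle FAPs had none of the 8 receptors higher and 5 lower (of all tested genes 36.1% were higher and 37.3% lower), again with all 8 estimates below 0 in edgeR and DESeq2, and lung FAPs had 3 higher, 3 lower and 2 that did not pass (37.8% and 36.6% of all tested genes being higher and lower). The median over the 8 was −1.78 in muscle FAPs, against −0.04 over all tested genes, and −0.66 in lung FAPs, against 0.02. The log2 fold change of Csf1r was −4.62 in muscle FAPs (edgeR adjusted p = 2.85e-07) and −1.97 in lung FAPs (edgeR adjusted p = 0.000141), MEFs 1 to 4 holding 43.3, 40.2, 19.7 and 37.1 CPM, above every FAP library. In GENCODE 17.9% of its exon length is shared with Hmgxb3 on the opposite strand. The myeloid sum in the same MEFs was 457, 303, 116 and 351 CPM, so that MEF 3 was the lowest in both, and the part of myeloid cells in the difference was not tested. Il7r had log2 fold changes of −5.23 in muscle FAPs (edgeR adjusted p = 3.79e-06) and −2.78 in lung FAPs (edgeR adjusted p = 0.000177). That of Crlf2, its partner for Tslp, was −1.59 in muscle FAPs (edgeR adjusted p = 2.02e-05) and −1.21 in lung FAPs (edgeR adjusted p = 0.000129). Crlf2 stood at 5.26 ± 1.56 CPM in muscle FAPs, 6.85 ± 1.69 CPM in those of lung and 15.9 ± 2.40 CPM in MEFs, an order opposite to that of Tslp over MEFs. Lung FAPs were above MEFs in Csf3r (3.50, edgeR adjusted p = 7.68e-05), in Kit (2.25, adjusted p = 0.0244, and 1.23 with adjusted p = 0.112 without lung FAP 2) and in Csf2ra (0.65, adjusted p = 0.0368). The Kit call was also lost without MEF 1, 3 or 4, and the Csf2ra call without lung FAP 2, 3 or 4 or any 1 MEF library, with edgeR adjusted p between 0.0593 and 0.0862. Flt3, the receptor for Flt3l, was too low to test, with 0 reads in muscle FAPs, which allows 0.022 CPM (3 reads over the group), 21 reads in those of lung and 1 read in MEFs.

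Csf2rb and Csf2rb2, the shared beta chain and its near-identical mouse copy, can share reads and are uncertain. Csf2rb was 7.10, 0.266, 0.432 and 0 CPM in muscle FAPs 2 to 5, so that 1 library made the muscle mean. Against lung FAPs it did not pass (edgeR adjusted p = 0.40), but without muscle FAP 2 it was lower in muscle (log2 fold change −4.08, edgeR adjusted p = 0.000259). Csf2rb2 averaged 3.48 ± 2.08 CPM in muscle FAPs, 6.73 ± 2.75 CPM in those of lung and 8.90 ± 2.97 CPM in MEFs. It was among the 5 listed receptor genes lower in muscle FAPs than in MEFs (log2 fold change −1.35, edgeR adjusted p = 0.0176).

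**Figure D4:**
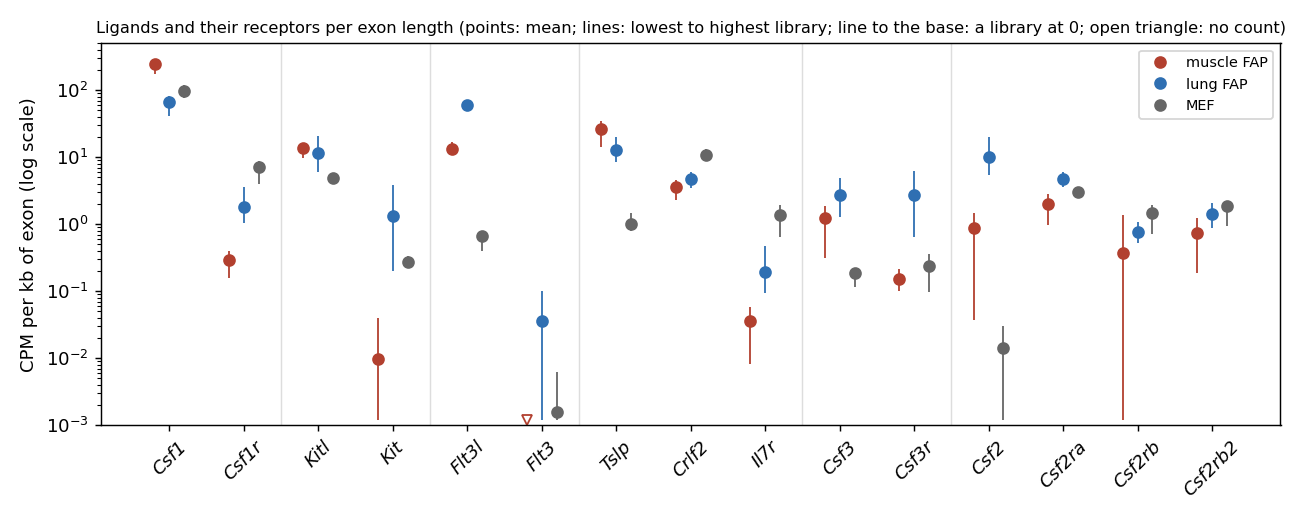
Each growth factor beside its receptor genes in the 3 groups, in TMM-scaled CPM per kilobase of exon on a log axis. Csf2rb2, drawn with Csf2, is the copy of Csf2rb that serves Il3 and is not a receptor of Csf2. Points are group means and lines run over the libraries' range, reaching the base of the plot where a library was at 0; the open triangle marks Flt3 in muscle FAPs, with 0 reads. Csf1r, Crlf2 and Il7r were highest in MEFs, and Kit and Csf3r were highest in lung FAPs.

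Other ligands use the same receptors. Il34, a second ligand of Csf1r, stood at 10.6 ± 2.77 CPM in muscle FAPs, 8.15 ± 5.79 CPM in those of lung and 0.754 ± 0.357 CPM in MEFs. It was higher than in MEFs in muscle FAPs (log2 fold change 3.80, edgeR adjusted p = 8.13e-06) and in lung FAPs (3.43, edgeR adjusted p = 1.59e-05), whereas the tissues were not told apart (0.38, edgeR adjusted p = 0.48). Without lung FAP 2, which held 17.9 CPM, Il34 was higher in muscle than in lung FAPs (0.90, edgeR adjusted p = 0.0285). Il7, a lymphocyte factor that shares Il7r with Tslp, ran the other way over MEFs, with 1.48 ± 0.331 CPM in muscle FAPs, 2.30 ± 0.579 CPM in those of lung and 4.20 ± 0.513 CPM in MEFs. Its log2 fold change over MEFs was −1.50 in muscle FAPs (edgeR adjusted p = 0.000127) and −0.86 in lung FAPs (edgeR adjusted p = 0.00521). Il3 and Il5, which use the beta chain, were not tested, with 1 read of Il3 in all libraries and, for Il5, 14 reads in muscle FAPs, 0 in those of lung and 4 in MEFs.

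Kitl is made in the bone marrow by connective tissue cells with a known gene set, of which 9 genes were followed: Cxcl12, Vcam1, Angpt1, Spp1, Lepr, Foxc1, Ebf1, Ebf3 and Prrx1. In muscle FAPs against lung FAPs 2 were higher, 3 lower and 4 did not pass, beside 23.2% higher and 25.0% lower among all tested genes, and the median log2 fold change was −0.42, beside −0.04. Ebf3, a transcription factor of marrow stroma, averaged 55.7 ± 5.87 CPM in muscle FAPs, 7.13-fold above the 7.80 ± 4.14 CPM of lung FAPs (edgeR adjusted p = 1.70e-05). The leptin receptor Lepr averaged 30.2 ± 2.94 CPM in muscle FAPs, 3.81-fold below the 115 ± 50.4 CPM of lung FAPs (edgeR adjusted p = 1.06e-05). Over MEFs 7 were higher and 2 lower in muscle FAPs, and 5 were higher, 3 lower and 1 not passed in lung FAPs, with medians of 1.81 in muscle FAPs and 1.57 in lung FAPs. All tested genes had medians of −0.04 in muscle FAPs, with 36.1% higher and 37.3% lower, and 0.02 in lung FAPs, with 37.8% higher and 36.6% lower. Angpt1, a ligand of the endothelial and stem cell receptor Tie2, stood at 43.4 ± 9.90 CPM in muscle FAPs, 124 ± 40.4 CPM in those of lung and 3.0 ± 0.680 CPM in MEFs. Its log2 fold change over MEFs was 3.85 in muscle FAPs (edgeR adjusted p = 6.33e-09) and 5.37 in lung FAPs (edgeR adjusted p = 2.63e-10). Spp1, or osteopontin, averaged 2.33 ± 1.04 CPM in muscle FAPs, 19.7 ± 37.1 CPM in those of lung and 436 ± 286 CPM in MEFs. It was lower than in MEFs both in muscle FAPs (log2 fold change −7.54, edgeR adjusted p = 0.0012) and in lung FAPs (−4.47, edgeR adjusted p = 0.00647). Without lung FAP 2, which held 85.9 CPM, the lung change of Spp1 was −7.17 (edgeR adjusted p = 3.43e-06).

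Csf1 and Kitl are also made as membrane-held proteins that proteases release, and 6 genes of that step were followed. In muscle FAPs against lung FAPs 1 was higher, 3 lower and 2 did not pass, with a median log2 fold change of −1.02, where all tested genes had 23.2% higher, 25.0% lower and a median of −0.04. Mmp9, a protease that frees Kitl in mouse marrow, was low in all groups, with 0.125 ± 0.078 CPM in muscle FAPs, 2.31 ± 1.67 CPM in those of lung and 2.41 ± 1.05 CPM in MEFs, and muscle FAPs were lower than lung FAPs (log2 fold change −4.18, edgeR adjusted p = 0.000185) and than MEFs (−4.24, edgeR adjusted p = 7.20e-05). Rhbdf2, which brings the protease Adam17 to the surface, was 5.68-fold lower in muscle than in lung FAPs (edgeR adjusted p = 7.82e-07) and 4.13-fold lower than in MEFs (edgeR adjusted p = 1.47e-06). The protease gene Adam17, named after its values were seen, was at 176 ± 16.0 CPM in muscle FAPs, 119 ± 26.6 CPM in those of lung and 60.4 ± 9.98 CPM in MEFs. Its difference between muscle and lung (log2 fold change 0.57, edgeR adjusted p = 0.0054) did not pass with scaling by library size alone (0.16, adjusted p = 0.356). Over MEFs 3 of the 6 were higher and 3 lower in muscle FAPs, while 3 were higher, 1 lower and 2 not passed in lung FAPs, the medians being 0.073 in muscle FAPs and 0.72 in lung FAPs. The background was 73.5% passing in muscle FAPs (median −0.04) and 74.4% in lung FAPs (median 0.02). Timp3, an inhibitor of Adam17, had 7.95 times its MEF level in lung FAPs (edgeR adjusted p = 1.55e-10). Rhbdf1, related to Rhbdf2, had 2.62 times its MEF level there (edgeR adjusted p = 4.33e-08). Muscle FAPs were above MEFs in both as well. Timp3 averaged 808 CPM in muscle FAPs, 3035 in those of lung and 382 in MEFs, and Rhbdf1 158, 130 and 49.5 CPM.

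The last list held 14 genes of NF-kB, which acts on Csf2 and Csf3, and of proteins that act on the stability of mRNAs. They were Nfkb1, Nfkb2, Rel, Rela, Relb, Nfkbia, Tnfaip3, Zfp36, Zfp36l1, Zfp36l2, Zc3h12a, Khsrp, Hnrnpd and Elavl1. The list mixes genes of opposite effect, such as subunits and inhibitors of NF-kB, so its counts and medians give no direction of a process. In muscle FAPs against lung FAPs 8 were higher, 1 lower and 5 did not pass, with a median log2 fold change of 0.40. The shares over all tested genes were 23.2% higher and 25.0% lower, with a median of −0.04. The lower gene was Nfkbia, an inhibitor of NF-kB that NF-kB itself induces, at 512 ± 91.4 CPM in muscle FAPs and 791 ± 176 CPM in lung FAPs (log2 fold change −0.63, edgeR adjusted p = 0.00632). Nfkb1, an NF-kB subunit, stood at 840 ± 210 CPM in muscle FAPs, 137 ± 23.5 CPM in those of lung and 46.5 ± 1.35 CPM in MEFs, a log2 fold change of 2.62 between the tissues (edgeR adjusted p = 1.37e-08). Rel, another subunit, was higher in muscle than in lung FAPs by 0.94 on the log2 scale (edgeR adjusted p = 0.0092), and by 0.53 with scaling by library size alone (adjusted p = 0.111). Over MEFs 11 of the 14 were higher, 2 lower and 1 not passed in muscle FAPs, and 11 were higher and 3 lower in lung FAPs, with medians of 3.17 in muscle FAPs and 1.86 in lung FAPs. Of all tested genes 36.1% were higher in muscle FAPs (median −0.04) and 37.8% in lung FAPs (median 0.02). Tnfaip3, another such inhibitor, stood at 469 ± 157 CPM in muscle FAPs, 615 ± 91.5 CPM in those of lung and 8.97 ± 0.676 CPM in MEFs. Between the tissues it did not pass (log2 fold change −0.39, edgeR adjusted p = 0.0817). The log2 fold change over MEFs was 5.71 in muscle FAPs (edgeR adjusted p = 1.01e-11) and 6.10 in lung FAPs (edgeR adjusted p = 4.79e-12). Zfp36, which binds ATTTA repeats and speeds the decay of Csf2 mRNA in mouse cells, averaged 1916 ± 353 CPM in muscle FAPs. It averaged 2398 ± 1027 CPM in lung FAPs and 60.0 ± 14.2 CPM in MEFs. The log2 fold change of muscle FAPs over MEFs was 5.0 (edgeR adjusted p = 8.93e-09). In lung FAPs Nfkbia was above the 17.0 ± 2.45 CPM of MEFs (log2 fold change 5.54, edgeR adjusted p = 5.03e-12).

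The genes whose log2 CPM followed each factor most closely over the 13 libraries, among 10303 genes averaging 5 CPM or more, are given as a description, since group differences and depth are shared by all points. Flt3l and Tslp had the closest companions: Mr1 (Pearson r = 0.996), Spice1 and Mfsd7a for Flt3l, and Dennd4a (r = 0.993), Mtmr12 and Atxn7 for Tslp. Csf1 was followed by Fbxo34 (r = 0.967) and Cndp2, and Csf2 by Donson (r = 0.967), Dlg2 and Mterfd2. For Csf3 they were Vcam1 (r = 0.957), Prkab2 and Tbl1xr1. Kitl was followed by Grap (r = 0.961), Gimap6 and Clec14a.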

How the data were processed

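Total RNA of 13 libraries was sequenced, and the authors deposited 1 table of raw read counts per gene and library, with 0 columns of other samples. The submitters' processing notes name Bowtie2 2.1.0.0, HTSeq and edgeR and the build mm10; the annotation, strand setting and any filter of the authors were not stated. Genes were kept by filterByExpr and tested by the quasi-likelihood F test with robust dispersion (edgeR 4.0.16, R 4.3.3, TMM factors), using all 13 libraries together and group as the factor. P-values were adjusted by Benjamini-Hochberg over 15412 genes, and the code was tested on simulated counts. A log2 fold change is the first group over the second; its SE comes from log2 CPM per library, computed with 2 as prior count. Levels per kilobase and 3′ untranslated regions used GENCODE vM21 exons on GRCm38, and promoters RefSeq on GRCm38.p6. The members and gene lists were chosen with earlier results of these data known. All members, receptors and ligands of shared receptors are named; from each other list the 2 passing genes of largest absolute fold change are named per comparison, and 3 genes per factor by correlation, of which 1 is not reported here. Alternatives were another scaling, no filter, DESeq2 1.42.0, the replicate number as a block, and leaving out libraries. No pair of libraries held identical counts (0 of 78 pairs).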

Additional observations from a re-analysis of the deposited data

Results flagged for a closer look

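In groups of 4 or 5 libraries, a library was singled out where its gap to the nearest other library exceeded Dixon's 95% critical value for its share of the group's range. This held in 18 of 95 checks, 18.9%. The critical value gives about 1 in 20 for normally distributed values only, so the share is not set against chance. A group with reads in 1 library alone always exceeds it, as with Kit in muscle FAP 3 and Flt3 and Il3 in MEF 3. Of the growth factors, Flt3l was low in MEF 3, at 0.727 CPM against 1.33 to 1.45 in the other MEFs, and Tslp was high in MEF 4, at 1.68 CPM against 0.897 to 1.02.

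Among the receptors, lung FAP 1 stood high in Csf1r (17.6 CPM against 5.11 to 8.44 in the other lung libraries). Lung FAP 2 stood high in Kit (20.5 CPM against 1.06 to 6.45) and in Il7r (1.65 CPM against 0.331 to 0.665). Muscle FAP 2 stood high in Csf2rb (7.10 CPM against 0 to 0.432), and muscle FAP 3 alone held Kit reads (0.207 CPM against 0). MEF 3 stood low in Csf2ra (5.09 CPM against 5.67 to 5.74) and in Csf2rb2 (4.45 CPM against 10.1 to 10.6), and alone among the MEFs held a read of Flt3 and of Il3 (0.0227 CPM each, 1 read).

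In the other lists, lung FAP 2 was high in Lepr (203 CPM against 76.4 to 108), in Spp1 (85.9 CPM against 1.01 to 4.45) and in Angpt1 (194 CPM against 95.6 to 123). Muscle FAP 2 was low in Lepr (25.8 CPM against 31.1 to 32.0), muscle FAP 3 high in Nfkbia (647 CPM against 448 to 480), MEF 2 high in Nfkb1 (48.5 CPM against 45.6 to 46.0) and lung FAP 4 high in Adam17 (164 CPM against 95.8 to 115). Lung FAP 2 and MEF 3 each account for 5 of the 18, those of MEF 3 including the single reads of Flt3 and Il3.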

How the results depend on the processing

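Of the members' values under the alternatives, 333 kept their direction and side of the threshold, 5 came to pass, 3 no longer passed and 1 reversed; of the listed genes' values the numbers were 1317, 29, 18 and 4. With scaling by library size alone, the median of all genes moved by −0.41 (muscle FAPs over lung FAPs), −0.58 (muscle FAPs over MEFs) and −0.17 (lung FAPs over MEFs), and calls were 1730 higher and 7455 lower, against 3574 and 3850, between the tissues, 3757 and 8089, against 5570 and 5756, for muscle FAPs over MEFs, and 5217 and 6326, against 5825 and 5639, for lung FAPs over MEFs. In muscle FAPs over lung FAPs that scaling gave Csf3 −1.59 (edgeR adjusted p = 0.0187), Tslp 0.62 (adjusted p = 0.0831) and Kitl −0.20 (adjusted p = 0.601), so that 1 member was higher, and it reversed Il34 (−0.062) and Rhbdf1 (−0.12), neither past the threshold. The cause was not tested. Leaving out each library in turn, in the same comparison, moved Csf3 between −1.43 and −0.83 and Kitl between 0.070 and 0.57. For lung FAPs over MEFs it moved Csf1 between −0.67 and −0.46, the number of lower members between 0 and 1, and Mmp9 between −0.53 and 0.27, never past the threshold. Without lung FAPs 2 and 3 together, Csf1 was −0.45 and 0 members were lower. Same-numbered libraries' deviations from their group means correlated at −0.048 to 0.061. These values cannot tell whether same-numbered libraries share an origin, since other differences between libraries enter them too. With the replicate block, Csf3 was −1.32 in muscle FAPs over lung FAPs (edgeR adjusted p = 0.0383) and no other member's call changed. The total of calls in both directions moved by less than 1.5 times under every setting run, while the split by direction moved as given above. At this depth 3 reads over a group are 0.022 CPM in muscle FAPs, 0.018 in those of lung and 0.0166 in MEFs, which limits Csf2 in MEFs, Kit in muscle FAPs and Flt3 throughout.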
